A study of Arabidopsis thaliana with 12 samples.

Results

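AOP3 and BCAT4 are genes of aliphatic glucosinolate synthesis in Arabidopsis thaliana, and their transcript levels were followed over all 12 leaf arrays of a study of oleic acid and defence signalling. They were chosen by name, with their behaviour on these arrays already known, and each is measured by 1 probe set annotated to that gene alone. They are 2 of 13286 genes that such a probe set represents. The levels of both genes are therefore given as a description, without a test of either gene.

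Glucosinolates are sulfur-rich defence compounds of the cabbage family that release toxic products when leaf tissue is damaged. The aliphatic class starts from methionine. BCAT4, a methionine aminotransferase, takes the first step of methionine chain elongation, further enzymes build the core structure, and AOP3, a 2-oxoglutarate-dependent dioxygenase, modifies the finished side chain to a hydroxyalkyl form. AOP3 lies in a small cluster with its relatives AOP1 and AOP2, and its leaf expression is known to differ between natural strains of Arabidopsis.

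The 4 genotypes were ssi2 act1, ssi2 sid2, ssi2 and wild type (WT), with 3 biological replicates each and 1 Affymetrix array per replicate. The 3 mutant genotypes all carry ssi2, a mutation in a plastid stearoyl-ACP desaturase that lowers oleic acid. The act1 mutation affects a plastid glycerol-3-phosphate acyltransferase that consumes oleic acid, and sid2 affects the isochorismate synthase of salicylic acid synthesis. All plants were labelled as Col-0 in background, leaves were taken at 4 wk, and growth was at 22 °C, 65% relative humidity and a 14 h photoperiod. The labels name no second line of any mutant genotype, so the named mutations and any other difference between the lines cannot be told apart. The mutated genes themselves were not analysed here.

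The values are the deposited signals, on a linear scale. The median signal per array was between 95.7 and 158, and 16.9% to 21.8% of probe sets were under 16. Arrays of the same genotype correlated at 0.914 to 0.982 over all probe sets. WT replicate 2 and ssi2 replicate 3 stood apart from their genotypes along the third and the second principal components, which carried 15.1% and 17.5% of the variance. RCA, the leaf-abundant Rubisco activase, had signals between 2419 and 21357, lowest in WT replicate 2, and 8 of 57 marker genes of leaf and other cell types were measured. Of the 4 root markers measured, AT5G17820 and AT5G66390 were at 24.4 or less on every array, EXPA7 reached 40.8, and PYK10 reached 308, in ssi2. Fewer cells of a type and less RNA per cell cannot be told apart in whole leaves.

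AOP3 (AT4G03050, chromosome 4) was near the bottom of the signal range in WT leaves and well above it on every mutant array. In ssi2 act1 its signal was 1229, 469.7 and 731 in replicates 1 to 3. In ssi2 sid2 it was 2843, 2584 and 5057, and in ssi2 it was 5704, 3667 and 393. The WT arrays read 24.5, 22.5 and 19.0. No mutant array overlapped the WT arrays, and the lowest mutant value, in ssi2 replicate 3, lay 3.34 log2 units above the highest WT value. That gap was at least as large in 1 of the 22746 probe sets tested, AOP3 itself. All 9 mutant arrays lay above all 3 WT arrays in 377 probe sets, 1.66% of those tested. On WT arrays AOP3 exceeded only 22.2% to 26.7% of probe sets, and on the mutant arrays it exceeded 66.1% to 97.3%.

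On the log2(signal + 16) scale used for all differences, AOP3 averaged 9.58 ± 0.680 in ssi2 act1, 11.71 ± 0.522 in ssi2 sid2, 11.00 ± 2.04 in ssi2 and 5.24 ± 0.106 in WT (SD, n = 3 each). The difference was 4.34 (SE 0.766) for ssi2 act1 against WT, 6.47 (SE 0.766) for ssi2 sid2 against WT and 5.76 (SE 0.766) for ssi2 against WT. These are ratios of 20.2, 88.5 and 54.1 on the scale of signal plus 16, and they ranked 5th, 3rd and 8th from the highest among 22746 probe sets. The 3 differences share the same WT arrays. The arrays of 16.5%, 26% and 25.2% of all probe sets did not overlap in these same comparisons.

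Among the mutants, AOP3 was lower in ssi2 act1 than in ssi2 sid2, by a log2 difference of -2.13 (SE 0.766), and the arrays of these genotypes did not overlap, as for 26.7% of all probe sets. The order of the genotype means was ssi2 sid2, ssi2, ssi2 act1 and WT. Neighbours in that order overlapped for ssi2 sid2 and ssi2, with a difference of 0.71 (SE 0.766), and for ssi2 act1 and ssi2, with -1.42 (SE 0.766). In all, 23.9% and 24% of probe sets did not overlap in these comparisons. The AOP3 signal of 393 in ssi2 replicate 3 was the lowest of any mutant array, and without that array ssi2 act1 no longer overlapped ssi2, while ssi2 sid2 still did. The share of all probe sets without overlap was not counted for this smaller set of arrays, so the 24% is no baseline for it. The 25S rRNA control read 1817 on ssi2 replicate 3, against 174 to 600.1 on the other arrays, and its part in the low AOP3 signal was not tested. Without ssi2 replicate 3 and WT replicate 2, the ssi2 act1 value was 2.58 log2 units below ssi2 (difference -2.58), and the ssi2 sid2 difference from ssi2 turned to -0.45. The ssi2 difference from WT was then 6.93.

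A control ratio moved with the AOP3 split. The ratio of the 3′ to the 5′ actin control probe sets was 0.34 to 0.79 on the 9 mutant arrays and 2.24 to 3.24 on the 3 WT arrays, while that of the GAPDH controls was 0.91 to 1.28 over all 12 arrays. Its part in the AOP3 difference was not tested. AOP2, a close relative of AOP3 that RefSeq annotates as a transcribed pseudogene, was not analysed here, and whether its transcript adds to the AOP3 probe set was not tested.

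**Figure D1:**
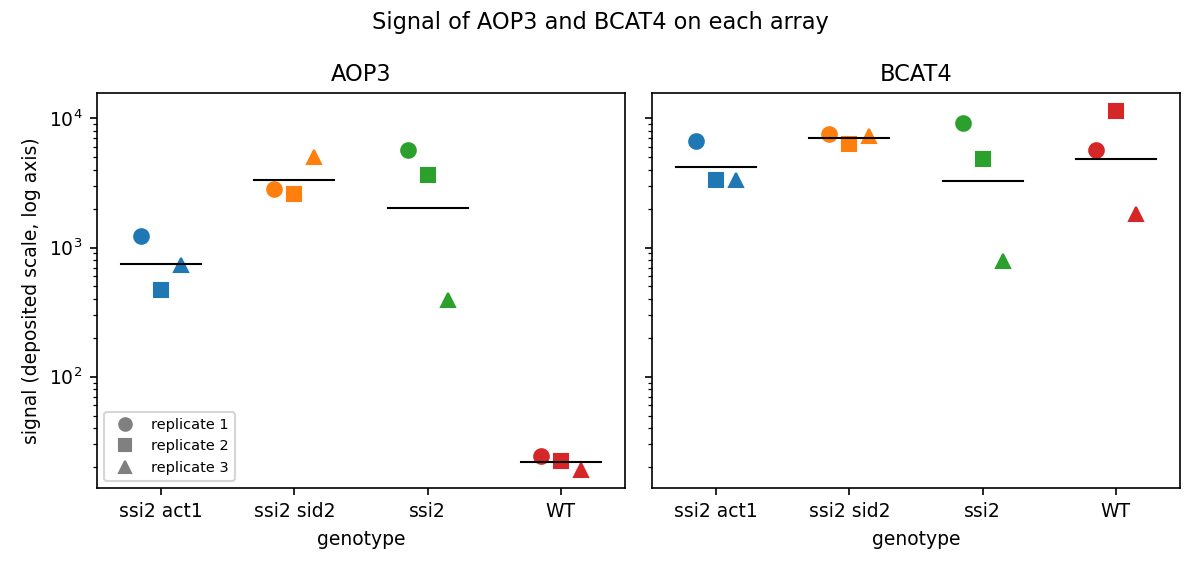
Signal of AOP3 (left) and BCAT4 (right) on each array, on a log axis, by genotype. Symbols mark replicates and the horizontal lines the mean of the log2 values; the 3 WT arrays of AOP3 lie between 19.0 and 24.5, below all mutant arrays, whereas BCAT4 overlaps between all genotypes.

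BCAT4 (AT3G19710, chromosome 3) was abundant in leaves of every genotype and did not separate WT from the mutants. Its signal was 6627, 3359 and 3337 in ssi2 act1, 7527, 6299.6 and 7269 in ssi2 sid2, and 9248, 4833 and 789 in ssi2. The WT arrays read 5688, 11326 and 1804. The highest signal, in WT replicate 2, and the next to lowest, in WT replicate 3, both came from WT plants, and the lowest came from ssi2 replicate 3. BCAT4 exceeded at least 79.6% of probe sets on every array.

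The BCAT4 log2 level averaged 12.04 ± 0.567 in ssi2 act1, 12.78 ± 0.136 in ssi2 sid2, 11.69 ± 1.83 in ssi2 and 12.26 ± 1.33 in WT (SD, n = 3 each). The mean was highest in ssi2 sid2 and lowest in ssi2, and the arrays of every pair of genotypes overlapped. Against WT, the difference was -0.22 (SE 0.805) in ssi2 act1, 0.52 (SE 0.805) in ssi2 sid2 and -0.57 (SE 0.805) in ssi2. Against ssi2, it was 0.35 (SE 0.805) in ssi2 act1 and 1.09 (SE 0.805) in ssi2 sid2, and ssi2 act1 differed from ssi2 sid2 by -0.74 (SE 0.805). Without WT replicate 2 and ssi2 replicate 3, the ssi2 difference from WT turned to 1.06 and the ssi2 sid2 difference from ssi2 was 0.07. With the same arrays left out, the ssi2 act1 difference turned to -0.67 against ssi2 and to 0.39 against WT.

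The spread within genotypes differed between groups and was widest in ssi2 for both genes. The highest AOP3 signal was 14.5 times the lowest within ssi2, 2.62 times within ssi2 act1, 1.96 times within ssi2 sid2 and 1.29 times within WT. For BCAT4 the ratio was 11.7 within ssi2, 1.99 within ssi2 act1, 1.19 within ssi2 sid2 and 6.28 within WT. The SD within genotypes, pooled over all 4, was 1.11 log2 units for AOP3, larger than in 98.2% of all probe sets, and 1.17 for BCAT4, larger than in 98.6%. Among probe sets within 0.5 log2 units of the same mean level, these SDs were larger than 97.4% of 2621 for AOP3 and 99.3% of 577 for BCAT4. Both SDs were smaller without ssi2 replicate 3, the array with the 25S rRNA signal of 1817, but the SD of BCAT4 stayed among the larger ones. Without that array the SD was 0.492 for AOP3, larger than in 64.9% of probe sets, and 0.817 for BCAT4, larger than in 94.3%. Without WT replicate 2 as well, it was 0.531 for AOP3, larger than in 80.0%, and 0.642 for BCAT4, larger than in 91.0%.

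The deviations of AOP3 and BCAT4 from their genotype means are set side by side as a description, since the pair was chosen after the values were seen. In ssi2 replicate 1, AOP3 and BCAT4 lay 1.48 and 1.49 log2 units above their ssi2 means, and in ssi2 replicate 3 they lay at -2.33 and -2.04. In ssi2 act1 replicate 1 the deviations were 0.70 and 0.65, and in ssi2 act1 replicate 2 they were -0.66 and -0.32. The ssi2 sid2 deviations were smaller, between -0.37 and 0.60 for AOP3 and between -0.15 and 0.10 for BCAT4. Over the 9 mutant arrays, these deviations had a Pearson r of 0.962 and a Spearman rho of 0.85, given without a test. Without ssi2 replicates 1 and 3, the arrays farthest from the median, r was 0.820, and over the 6 ssi2 act1 and ssi2 sid2 arrays it was 0.748. Of 13285 other genes, 102, or 0.768%, followed the AOP3 deviations at r of 0.9 or more, and BCAT4 stood at place 13.

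In WT, BCAT4 deviated by 0.22, 1.21 and -1.43 in replicates 1 to 3 and AOP3 by 0.09, 0.02 and -0.12. Replicate 3 was the lowest for both genes, but AOP3 in WT lay at signals where the added 16 compresses differences. Over levels on all 12 arrays the correlation of AOP3 with BCAT4 was 0.276, and over the 9 mutant arrays 0.803, given as descriptions of points that share genotypes.

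**Figure D2:**
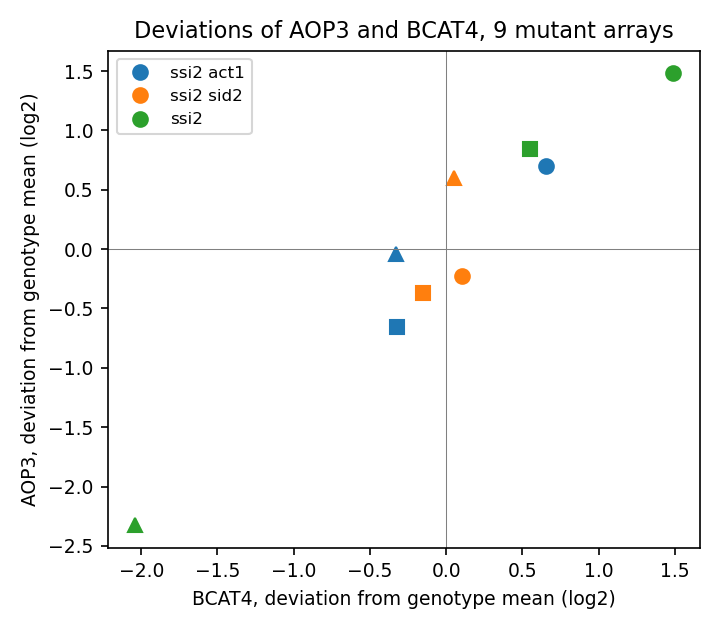
Deviation of AOP3 (vertical axis, log2) against that of BCAT4 (horizontal axis, log2) from the mean of their genotype, for the 9 mutant arrays. Each point is 1 array; circles, squares and triangles are replicates 1, 2 and 3, and ssi2 replicate 3 lies at the lower left, at -2.33 and -2.04.

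The rest of the pathway was covered thinly. Lists of 107 genes of glucosinolate synthesis, regulation, transport and breakdown and of methionine and sulfate supply were drawn up, and 20 of these genes had a single-gene probe set, AOP3 and BCAT4 among them. None of the 12 indolic genes listed and no other gene of the 9 of chain elongation was measured. The other 18 genes were read against all probe sets, in a limma fit with Benjamini-Hochberg adjustment over 22746 probe sets and calls at an adjusted p under 0.05.

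No other gene of the lists came near the AOP3 differences from WT. In ssi2 act1 against WT, 1.79% of all probe sets were called, 0.664% higher and 1.13% lower, and none of the 18 list genes was. The list median was -0.59, against 0.03 for all probe sets, and 7 list genes were at an unadjusted p under 0.05. At that unadjusted level there were 8 in ssi2 sid2 against WT, 3 in ssi2 against WT and 8 in ssi2 act1 against ssi2 sid2. The share of all probe sets at that unadjusted level was not counted, so such counts, here and below, have no baseline. In ssi2 sid2 against WT, 6.41% of probe sets were called, 3.62% higher and 2.79% lower, and 1 list gene was lower. In ssi2 against WT, 10.1% were called, 5.77% higher and 4.34% lower, and 1 list gene was higher and 1 lower. The medians of the list were 0.38 and 0.11 in these comparisons, against 0.01 and 0.08 for all probe sets. Leaving out WT replicate 2 and ssi2 replicate 3 changed these calls. Calls over all 22746 probe sets rose as well, from 407 to 799 in ssi2 act1 against WT. They rose from 1458 to 2246 in ssi2 sid2 against WT and from 2299 to 3161 in ssi2 against WT. In ssi2 act1 against WT, AT1G50110 was then lower, by -1.89 (adjusted p = 0.00370 by limma). In ssi2 sid2 against WT, 4 list genes were called. MYC4 was higher, by 1.43 (adjusted p = 0.0245), and AT1G04770, by 1.36 (adjusted p = 0.0401), while APS4 was lower, by -1.97 (adjusted p = 0.0292), and ATBCAT-5, by -0.81 (adjusted p = 0.0496). In ssi2 against WT, BGLU28, a beta-glucosidase, was called as well, at 1.73 (adjusted p = 0.0133 by limma). The share of calls that were higher depended on the scaling of the arrays. In ssi2 sid2 against WT it was 56.4% as deposited and 43.7% with arrays centred on their medians, and in ssi2 against WT 57.1% and 34.1%. It was 44.4% in ssi2 against WT with quantile normalization. AOP3's differences from WT moved by less than its SD within genotypes under both scalings.

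The side-chain genes beside AOP3 did not show its split. AOP1, a dioxygenase of the same family and the next measured gene on the chromosome, had signals of 81.4, 284 and 190.4 in ssi2 act1, 372, 272 and 461 in ssi2 sid2, and 215, 235 and 168 in ssi2, against 379.9, 195 and 222 in WT. Its mutant and WT arrays overlapped in all 3 mutants and it was called in none of the 6 comparisons. AT2G25450, the other measured gene of the side-chain list, averaged 10.22 ± 1.01 in ssi2 act1, 10.42 ± 1.21 in ssi2 sid2, 11.54 ± 0.273 in ssi2 and 12.05 ± 1.14 in WT (log2, SD, n = 3 each), and was not called in any comparison.

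The list of the BCAT family and leucine synthesis held 2 other measured genes. ATBCAT-5, a branched-chain aminotransferase, was at 558, 651 and 685 in ssi2 act1, 681, 575 and 602 in ssi2 sid2 and 330.5, 367 and 593 in ssi2, against 1164, 1034 and 1024 in WT. It fell in ssi2 against WT, by a log2 difference of -1.33 (SE 0.245, adjusted p = 0.00475 by limma), and this call held under all 20 alternative settings. AT1G50110 was low everywhere, at 10.5, 6.05 and 7.68 in ssi2 act1, against 88.3, 54.3 and 81.3 in ssi2 sid2. Its difference of -1.90 (SE 0.497) was called at an adjusted p of 0.0440 by limma, and was lost without any of 8 arrays in turn, at adjusted p up to 0.161.

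Core-structure genes act between BCAT4 and AOP3 in the pathway, and 3 of the 11 listed were measured. GSTU20, a glutathione S-transferase, had 4251, 4058 and 2399.7 in ssi2 act1, 5368, 2672 and 6871 in ssi2 sid2, 6364, 4021 and 473 in ssi2, and 3855, 4545 and 2577 in WT. As in BCAT4, ssi2 replicate 3 was the lowest array, and the genotypes overlapped. AT2G31790 was at 865, 256 and 407 in ssi2 act1 and at 1771, 1416 and 2226 in ssi2 sid2, a called difference of -1.94 (SE 0.525, adjusted p = 0.0496 by limma). That call was lost without any of 8 arrays in turn. UGT74B1, a glucosyltransferase of the core structure, was called in no comparison of all 12 arrays, with means between 9.40 in ssi2 act1 and 10.37 in ssi2 sid2.

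**Figure D3:**
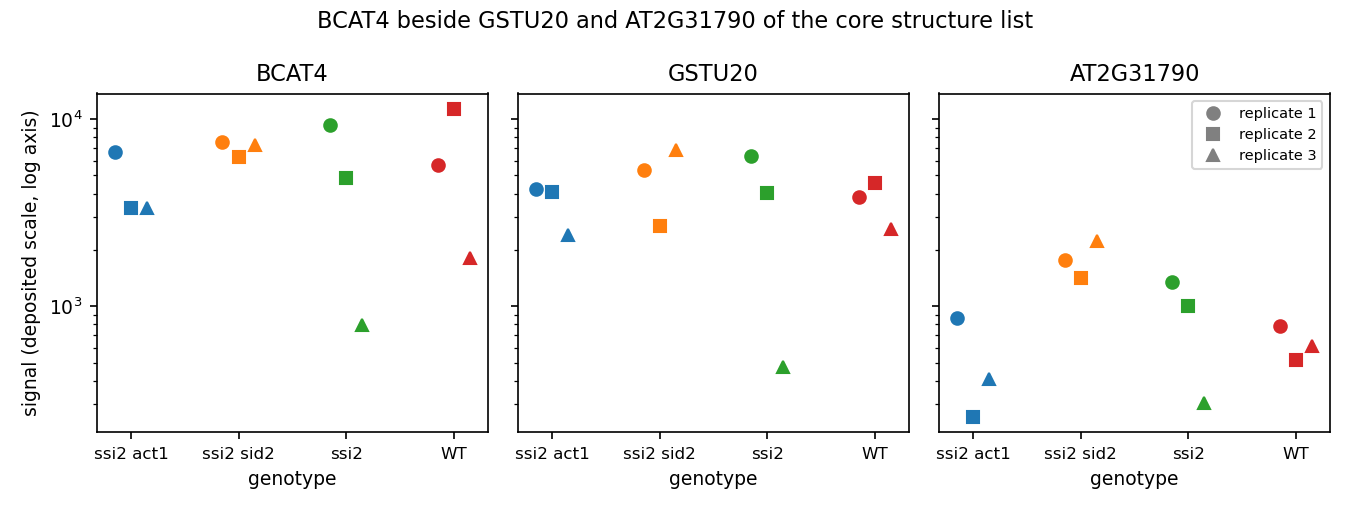
Signal of BCAT4, GSTU20 and AT2G31790 on each array, on a shared log axis, by genotype. Symbols mark replicates; ssi2 replicate 3 is the lowest array for BCAT4 (789) and for GSTU20 (473), and AT2G31790 is higher in ssi2 sid2 than in ssi2 act1.

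With all 12 arrays, regulators and transporters were called in comparisons that involve ssi2 act1. In ssi2 act1 against ssi2 sid2, 6.4% of all probe sets were called, 2.44% higher and 3.96% lower, and 5 of the 18 list genes were lower in ssi2 act1, none higher. They were AT1G50110 and AT2G31790, above, with MYC4, AT1G04770 and GTR1. MYC4, a bHLH regulator of glucosinolate genes, was at 73.9, 95.4 and 95.2 in ssi2 act1, against 427, 212 and 448 in ssi2 sid2, a difference of -1.80 (SE 0.339, adjusted p = 0.00987 by limma). AT1G04770, of the regulator list, was at 52.2, 71.0 and 55.9, against 256, 593 and 238 in ssi2 sid2, a difference of -2.21 (SE 0.454, adjusted p = 0.0152 by limma). GTR1, a glucosinolate importer, was at 553, 356 and 287, against 1019, 1117 and 962 in ssi2 sid2, a difference of -1.39 (SE 0.336, adjusted p = 0.0317 by limma). The arrays overlapped for none of these 3, and 26.7% of all probe sets did not overlap in this comparison either. The log2 means in ssi2 and WT were 7.25 and 7.28 for MYC4, 7.95 and 7.58 for AT1G04770 and 9.52 and 9.18 for GTR1. They lay between those of ssi2 act1 and ssi2 sid2. MYC4 differed from ssi2 and WT by 1.24 and 1.21 in ssi2 sid2 and by -0.56 and -0.59 in ssi2 act1, none called. In ssi2 act1 against ssi2 sid2, MYC4 lost the call without either of 2 arrays and AT1G04770 without 1, at adjusted p up to 0.0618, and GTR1 without any of 5, at up to 0.124. Without WT replicate 2 and ssi2 replicate 3 these 5 genes were called and UGT74B1 was too, at -0.97 (adjusted p = 0.0421 by limma). Over all probe sets, 2676 of 22746 were then called, against 1456 with all 12 arrays.

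In ssi2 act1 against ssi2, 8.37% of probe sets were called, 3.17% higher and 5.2% lower, and 2 list genes were lower, GTR2 and AT1G04770. At an unadjusted p under 0.05 there were 9 of 18, again without a share over all probe sets. GTR2, a second glucosinolate importer, was at 452, 198 and 417 in ssi2 act1, against 897, 959.6 and 1428 in ssi2, a difference of -1.63 (SE 0.391, adjusted p = 0.0244 by limma). AT1G04770 differed by -1.72 (SE 0.454, adjusted p = 0.0378 by limma). GTR2 lost the call without any of 3 arrays in turn and AT1G04770 without any of 7. Without WT replicate 2 and ssi2 replicate 3, 7 of the 18 genes were called in this comparison. Calls over all probe sets rose as well, to 3117 of 22746, against 1903 with all arrays. AT1G04770, GTR1, GTR2, PYK10, BGLU28 and AT1G50110 were lower and ATBCAT-5 was higher, by 0.82 (adjusted p = 0.0361 by limma). In ssi2 sid2 against ssi2, 3.13% of probe sets were called, 1.42% higher and 1.71% lower, and none of the 18 list genes was. Here 8 were at an unadjusted p under 0.05, likewise without a share over all probe sets. Without those 2 arrays 1 was called, PYK10, given here without a share over all probe sets. Calls that were higher made up 37.8% as deposited in ssi2 act1 against ssi2, 50.9% after quantile normalization and 62.9% after centring on medians. Centring gave 61.4% in ssi2 sid2 against ssi2 and 50.9% in ssi2 act1 against ssi2 sid2, where the deposited scale gave 45.3% and 38.1%.

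PYK10, a beta-glucosidase of ER bodies that is best known from roots, was at 308, 214 and 37.2 in ssi2, against 21.5, 27.2 and 38.0 in WT. It rose by a log2 difference of 1.84 in ssi2 against WT (SE 0.521, adjusted p = 0.0448 by limma), although ssi2 replicate 3 lay within the WT range, and was lost without any of 11 arrays in turn, at adjusted p up to 0.171. Without WT replicate 2 and ssi2 replicate 3 the difference was 2.60 (adjusted p = 0.000522 by limma). APS4, an ATP sulfurylase of sulfate activation, was at 173, 568 and 126 in ssi2 sid2, against 987, 557 and 946 in WT, overlapping, with a difference of -1.71 (SE 0.450, adjusted p = 0.0434 by limma). That call was lost without any of 9 arrays in turn. MYC3, BGLU28, APS3, CBL and MGL, of the regulator, breakdown, sulfate and methionine lists, were called in no comparison of all 12 arrays. AT5G61360, a marker of the flower and pollen list, gave signal in leaves of every genotype. It was at 332, 565 and 412 in ssi2 act1 and 193, 181 and 155 in ssi2. In ssi2 sid2 it was at 160, 163 and 116, and in WT at 247, 245 and 206. Its level was higher in ssi2 act1, by 1.21 against ssi2 (SE 0.245, adjusted p = 0.0104) and 1.46 against ssi2 sid2 (SE 0.245, adjusted p = 0.00613, both by limma). The other measured marker of that list, AT5G07430, was at 18.7 or less on every array and was called in no comparison. AT5G61360 moved with the AOP3 difference within the mutants in the opposite direction, and its part there was not tested.

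**Figure D4:**
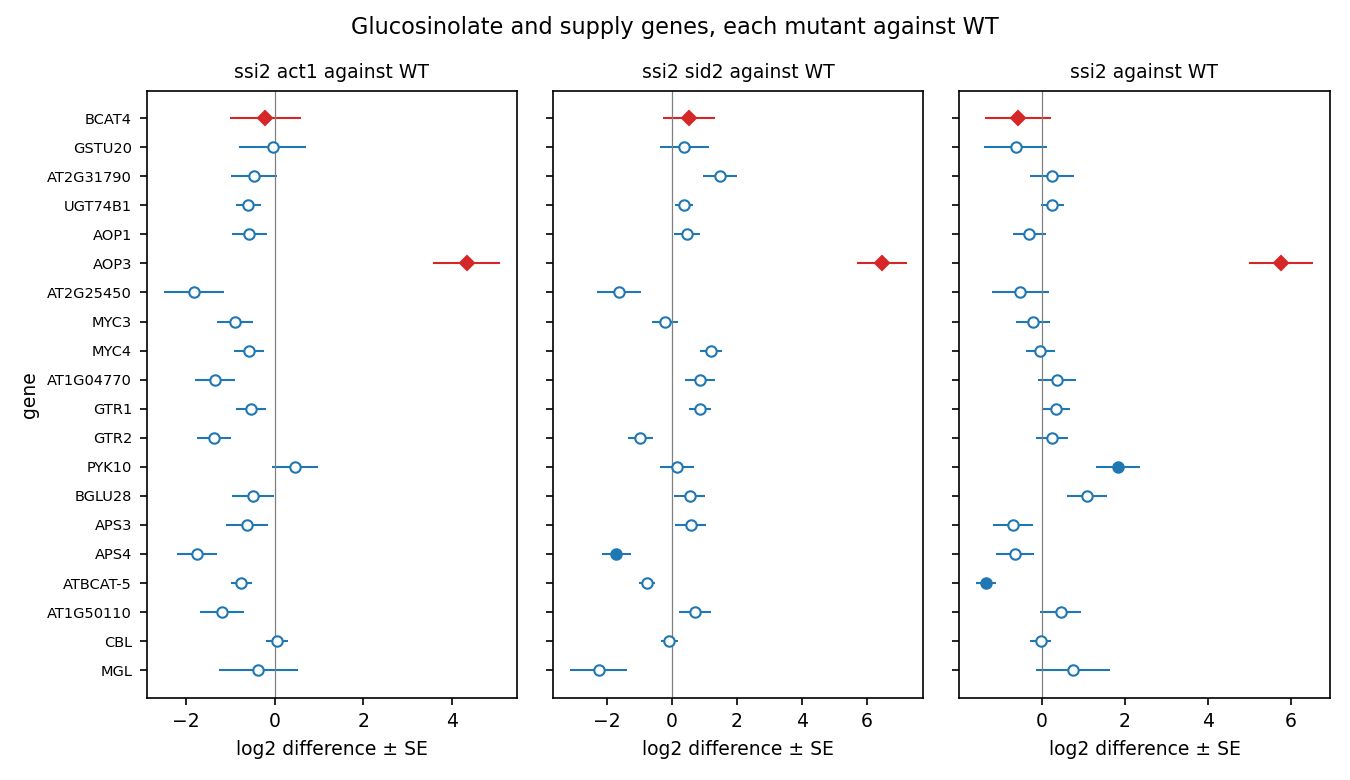
Log2 difference from WT (horizontal axis, with its SE) of the 20 measured list genes in ssi2 act1, ssi2 sid2 and ssi2. Red diamonds are AOP3 and BCAT4, filled circles other genes called at an adjusted p under 0.05 and open circles those not called; AOP3 lies at 4.34, 6.47 and 5.76 and no other gene lies above 1.84.

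The measured genes around AOP3 were examined on either side, 10 each, in the chromosome order of RefSeq (TAIR10.1). Against WT, their differences ran from -0.74 to 0.82 in ssi2 act1, from -0.79 to 1.63 in ssi2 sid2 and from -1.01 to 1.25 in ssi2, all far from those of AOP3. None of the 20 was called in ssi2 act1 against WT by limma, against 1.79% of all probe sets, with 3 at an unadjusted p under 0.05. At that unadjusted level there were 5 in ssi2 sid2 against WT and 8 in ssi2 against WT. Among the mutants there were 3 or 4, and none of these counts has a share over all probe sets. AT4G02920, 8 places away, was the only call of the 20 in ssi2 sid2 against WT, where 6.41% of all probe sets were called. It was at 3749, 4523 and 4923 in ssi2 sid2, against 1054, 1807 and 1442 in WT, a difference of 1.63 (SE 0.357, adjusted p = 0.0195 by limma). It was lost without any of 5 arrays in turn, and it was named after its values were seen, as were the other neighbours called outside ssi2 against WT.

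In ssi2 against WT, 3 of the 20 neighbours of AOP3 were called, against 10.1% of all probe sets. AT4G02940 rose by 1.24 log2 units (SE 0.301, adjusted p = 0.0219 by limma), with signals of 565, 661 and 536 in ssi2, against 300.2, 159 and 284 in WT. AT4G02930 was 0.98 higher (SE 0.281, adjusted p = 0.0468 by limma). AT4G03010 was at 42.9, 40.8 and 39.0 in ssi2, against 88.7, 109 and 99.2 in WT, a difference of -1.01 (SE 0.229, adjusted p = 0.0149 by limma). These calls were lost without any of 3, 10 and 1 arrays in turn, for AT4G02940, AT4G02930 and AT4G03010. Without WT replicate 2 and ssi2 replicate 3 all 3 were lost, at adjusted p of 0.0612, 0.132 and 0.0567 by limma in that order, and another neighbour, AT4G03100, was called, at 1.64 (adjusted p = 0.00735 by limma). Among the mutants, 1 of the 20 was called in each of ssi2 act1 against ssi2, ssi2 sid2 against ssi2 and ssi2 act1 against ssi2 sid2. Of all probe sets, 8.37%, 3.13% and 6.4% were called there. AT4G02940 was lower in ssi2 act1 than in ssi2, by -1.49 (adjusted p = 0.0101 by limma), a call lost without ssi2 replicate 2 (adjusted p = 0.0522 by limma). AT4G02920 was 1.65 higher in ssi2 sid2 than in ssi2 (adjusted p = 0.0295 by limma) and differed by -1.53 between ssi2 act1 and ssi2 sid2 (adjusted p = 0.0276 by limma), and both calls were lost without any of 5 arrays in turn.

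Around BCAT4, 2 of the 20 neighbours were called in ssi2 sid2 against WT and 1 in ssi2 against WT, beside 6.41% and 10.1% of all probe sets. In ssi2 act1, 1 was called against ssi2 and 2 against ssi2 sid2, beside 8.37% and 6.4% of all probe sets. AT3G19850, 6 places away, was called in 4 of the 6 comparisons. It was at 1179, 625 and 861 in ssi2 act1, 190.3, 274 and 249 in ssi2 sid2, and 133, 161 and 336 in ssi2, against 1288, 1446 and 1875 in WT. It was lower in ssi2 sid2 than in WT, by a log2 difference of -2.61 (SE 0.347, adjusted p = 0.00196 by limma), and in ssi2 than in WT, by -2.87 (SE 0.347, adjusted p = 0.000367 by limma), and both calls held under all 20 alternatives. It was higher in ssi2 act1 than in ssi2, by 2.06 (adjusted p = 0.00380 by limma), and than in ssi2 sid2, by 1.80 (adjusted p = 0.0111 by limma). The call against ssi2 sid2 was lost without ssi2 sid2 replicate 1 (adjusted p = 0.0624 by limma) or replicate 3 (adjusted p = 0.0508 by limma). AT3G19680, 3 places away, was called in ssi2 sid2 against WT, at -2.34 (SE 0.556, adjusted p = 0.0285 by limma), and in ssi2 act1 against ssi2 sid2, at 2.62 (adjusted p = 0.0172 by limma), and lost these calls without any of 5 and of 3 arrays in turn. BCAT4 itself overlapped in each of these comparisons. In ssi2 against WT, AT3G19550 was also called once WT replicate 2 and ssi2 replicate 3 were left out, at 3.72 (adjusted p = 0.0106 by limma). Its WT signals were 12.3, 277 and 8.97 in replicates 1 to 3, so the WT array left out was the highest. With all 12 arrays its adjusted p was 0.260 by limma. No neighbour of BCAT4 was called by limma in ssi2 act1 against WT, with 1 at an unadjusted p under 0.05, or in ssi2 sid2 against ssi2, with 2. Of all probe sets, 1.79% and 3.13% were called in these comparisons. In the other comparisons 2 or 3 neighbours were at that unadjusted level, without a share over all probe sets.

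**Figure D5:**
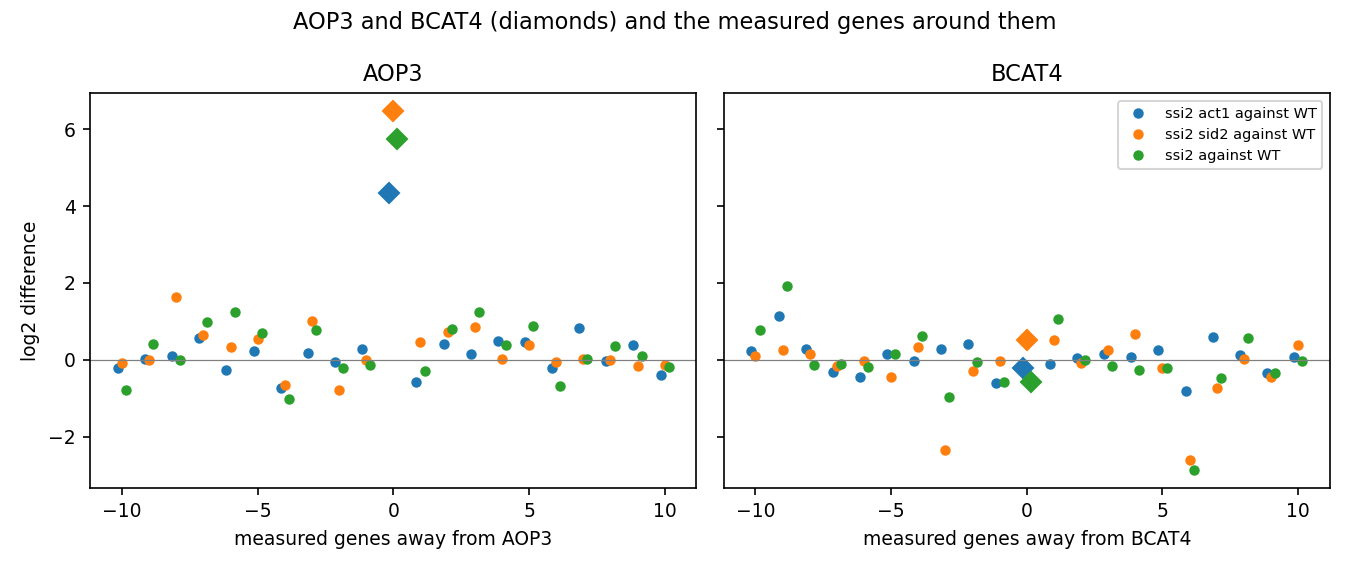
Log2 difference from WT of AOP3 (left) and BCAT4 (right), drawn as diamonds, and of the 10 measured genes on either side, drawn as circles, by place along the chromosome. Colours mark the mutants; AOP3 stands at 4.34 to 6.47 above neighbours that reach 1.63, and AT3G19850 lies at -2.61 and -2.87 beside BCAT4.

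The genes most like AOP3 were picked by the correlation of levels over the 12 arrays, on which the AOP3 gap between mutants and WT weighs heavily. That their means were higher in each mutant than in WT therefore follows largely from that choice. Cpn60beta2, a chloroplast chaperonin subunit, was the most like it of 13285 genes, at r = 0.946, with log2 means of 9.76 in ssi2 act1, 11.45 in ssi2 sid2 and 10.73 in ssi2, against 7.68 in WT. The next were AT2G18210 at 0.926, AT4G26860 at 0.924, AT2G37540 at 0.923, AT4G01730 at 0.918, AT3G22060 at 0.913, AT2G36970 at 0.913 and AT3G51750 at 0.908. The differences of these 8 genes from WT were smaller than those of AOP3, between 0.71 and 2.51 in ssi2 act1, 1.15 and 3.77 in ssi2 sid2 and 1.04 and 3.20 in ssi2. Of the list genes, ATBCAT-5 was the least like AOP3, at -0.868, place 13224, and AT2G31790 the most, at 0.575. These correlations describe 12 arrays that share genotypes and scaling, and carry no test.

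BCAT4 had fewer close matches, with 1 gene above r = 0.9 where AOP3 had 14. That gene was AT5G05350, at 0.931, whose log2 means lay between 6.44 and 6.61 in all genotypes. MSRB5, a methionine sulfoxide reductase, followed at 0.890, and GSTU20 of the core-structure list was the third, at 0.872. The remaining 5 of the first 8 were AT5G16010 at 0.853, AT5G43150 at 0.803, AT4G37295 at 0.801, AT1G20735 at 0.795 and AT1G13810 at 0.794. Of the other list genes, APS3, an ATP sulfurylase, stood at place 48 with 0.699 and AT2G31790 at place 139 with 0.625. AOP3 itself stood at place 2294.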

How the data were processed

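Total RNA from leaves was hybridised to 12 Affymetrix arrays, 1 per plant sample and 3 per genotype. The deposited values are signal intensities per probe set on a linear scale, made with Affymetrix Expression Console 1.0 per the submitters' processing notes. For the summary and scaling steps the tool's settings were not given in the sources used here. Trimmed means near 500.1 on every array show a common scaling of the deposited intensities. Of 22810 probe sets, 64 controls were left out, and 22746 were tested. The platform annotation gave 13513 probe sets 1 gene and 503 several; 13436 of those with 1 gene matched RefSeq loci, for 13286 genes, and where a gene had several the brightest on average was used. Precision is limited by having 3 arrays per genotype.

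All differences are of log2(signal + 16), fitted with limma 3.58.1 in R 4.3.3 with a mean per genotype over all 12 arrays, moderated across probe sets, two-sided, and adjusted with Benjamini-Hochberg over all probe sets in each of 6 comparisons of genotypes. Calls are at an adjusted p under 0.05. The fit was tested on simulated data. Correlations and counts were computed in Python 3.11.15 with pandas 2.3.3 and NumPy 2.4.6. The members and lists were chosen with earlier results of these data known. Named were both members, called list genes, neighbours called in ssi2 against WT and the 8 genes most like each member by Pearson r. Replicates are biological per the labels, which do not say whether plants were pooled.

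Alternatives were quantile normalization, median centring, a replicate block, fits of the 6 arrays compared, pseudocounts of 1 and 64, a filter that dropped probe sets under the 40th percentile of level, leaving out each array, and, chosen after seeing the data, leaving out WT replicate 2 and ssi2 replicate 3 together. Replicate numbers did not pair the samples.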

Additional observations from a re-analysis of the deposited data

How the results depend on the processing

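The differences of AOP3 from WT kept their direction under all 20 alternatives. The AOP3 difference was 5.31 in ssi2 sid2 against WT and 4.64 in ssi2 against WT with a pseudocount of 64, which by construction compresses low signals. Leaving out each array, or WT replicate 2 and ssi2 replicate 3 together (chosen after seeing the data), AOP3 ranged from 3.99 to 4.67 in ssi2 act1 against WT, 6.17 to 6.65 in ssi2 sid2 against WT and 5.02 to 6.93 in ssi2 against WT. It ranged from -2.58 to -0.68 in ssi2 act1 against ssi2, -0.45 to 1.45 in ssi2 sid2 against ssi2 and -2.48 to -1.80 in ssi2 act1 against ssi2 sid2. BCAT4 ranged from -0.93 to 0.39 in ssi2 act1 against WT, -0.19 to 1.12 in ssi2 sid2 against WT and -1.31 to 1.06 in ssi2 against WT. For BCAT4 the ranges were -0.67 to 1.10 in ssi2 act1 against ssi2 and 0.07 to 1.83 in ssi2 sid2 against ssi2. In ssi2 sid2 against ssi2, the AOP3 sign turned without ssi2 replicate 3.

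Counts of list genes called ranged, in the same way, from 0 to 1 in ssi2 act1 against WT, 0 to 4 in ssi2 sid2 against WT, 1 to 3 in ssi2 against WT, 0 to 7 in ssi2 act1 against ssi2, 0 to 2 in ssi2 sid2 against ssi2 and 1 to 6 in ssi2 act1 against ssi2 sid2. Neighbours of AOP3 called ranged from 0 to 1, 0 to 2, 0 to 4, 0 to 2, 0 to 1 and 0 to 1 in the same order, and neighbours of BCAT4 from 0 to 0, 1 to 2, 1 to 2, 1 to 2, 0 to 1 and 0 to 2. All probe sets called ranged from 188 to 799, 461 to 2246, 1291 to 3161, 887 to 3117, 233 to 1126 and 416 to 2676.

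In ssi2 against WT, 1 list gene was called after quantile normalization, after median centring, in the fit of the 6 arrays compared, with a pseudocount of 1 or 64 and with the filter on dim probe sets. In ssi2 act1 against ssi2 it was 1 after quantile normalization and with a pseudocount of 64, and 0 after median centring. In ssi2 sid2 against WT it was 0 with a pseudocount of 1 and 2 with the filter, and in ssi2 act1 against ssi2 sid2 it was 2 with a pseudocount of 1. Of the AOP3 neighbours, the fit of 6 arrays called 0 in ssi2 against WT and 2 in ssi2 sid2 against WT, as quantile normalization did there, and a pseudocount of 1 called 0 in ssi2 sid2 against ssi2 and in ssi2 act1 against ssi2 sid2. A pseudocount of 64 called 1 BCAT4 neighbour in ssi2 sid2 against ssi2. The fit of 6 arrays called 92 probe sets in ssi2 act1 against WT and 1161 in ssi2 against WT. A pseudocount of 1 called 268 in ssi2 act1 against WT, 955 in ssi2 sid2 against WT, 379 in ssi2 sid2 against ssi2 and 968 in ssi2 act1 against ssi2 sid2. The cause was not tested.

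Replicate numbers did not pair the samples: deviations of same-numbered arrays correlated between -0.38 and 0.33. A replicate block called 0 list genes in ssi2 sid2 against WT and 0 AOP3 neighbours in ssi2 sid2 against ssi2 and in ssi2 act1 against ssi2 sid2, and moved no other count by over 1.5 times. Low signals such as AOP3 in WT lie where the chosen pseudocount sets the size of a difference, so the ratios given for AOP3 depend on it.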
